A study of Homo sapiens with 9 samples.

Results

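The comparison set both GLO1-depleted clones of the human breast cancer line MDA-MB-231 against control cells of the same line. Its members were all 9 of the 9 RNA libraries in the series: 3 from shGLO1#1 cells, 3 from shGLO1#2 cells and 3 from shNT control cells. All cells carried a stable short hairpin RNA, directed against GLO1 in the shGLO1 clones and non-targeting in shNT. The difference tested was the mean of the 2 clone coefficients minus shNT, so each clone had the same weight. MDA-MB-231 is a mesenchymal, triple-negative breast carcinoma line, and each condition was a single stable line with 1 control line, so a line's own history and the loss of GLO1 cannot be told apart. The labels do not say that the libraries of a line came from separate cultures, so the p-values reflect only how far libraries of a line differed, which may be technical.

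GLO1 (glyoxalase 1) is the first enzyme of the pathway that converts methylglyoxal (MG), a reactive by-product of glycolysis, to lactate. MG modifies arginine and lysine residues of proteins and also reacts with DNA, and its accumulation is called dicarbonyl stress. The study asked how stable depletion of GLO1 changes the mRNA profile of these cells. The lists described below cover interferon responses, antigen presentation, hypoxia, growth factor signalling, matrix, cell junctions and metabolism.

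GLO1 mRNA, as a normalised read count scaled to library size (CPM), was 323, 312 and 317 CPM in the 3 shNT libraries and 14.0 to 65.9 CPM (median 39.9) in the 6 shGLO1 libraries. Every shGLO1 library lay below every shNT library, and the pooled log2 fold change was -3.35 (SE 0.044, adjusted p = 4.39e-15, quasi-likelihood test of edgeR). The 6 markers of a mesenchymal breast line were all expressed, with a summed level of 7057 to 7823 CPM over the 9 libraries. Of 6 luminal markers, ESR1, PGR and FOXA1 had 20, 16 and 49 counts over all 9 libraries. The others were expressed, with shNT means of 32.6 CPM for ERBB3, 14.6 CPM for EPCAM and 6.74 CPM for GATA3. The luminal markers summed to 49.4 to 63.0 CPM in shNT and 30.2 to 39.6 CPM in shGLO1 libraries. The libraries held 15314238 to 18495576 counts on genes.

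A gene was called where the adjusted p was under 0.05 and the absolute log2 fold change over 1. By this rule 989 of 13704 genes tested (7.22%) were called, 702 higher (5.12%) and 287 lower (2.09%). With adjusted p alone, 2724 genes (19.9%) were higher and 3051 (22.3%) lower, and with a log2 limit of 0.5, 1345 were higher and 854 lower. The libraries did not overlap for 1647 genes higher (12%) and 1728 genes lower (12.6%) in all 6 shGLO1 libraries than in all 3 shNT libraries. Scaled by gene count totals instead of TMM, these counts were 1990 higher and 1343 lower. Of the 989 called genes, 550 were also called the same way in each clone alone (4.01% of genes tested) and 438 in 1 clone only (3.20%). The last gene, SSC5D, was called in neither (0.00730%), and it lost its pooled call with DESeq2 (adjusted p = 0.13) and without any of 6 of the 9 libraries, for example shNT replicate 1 (adjusted p = 0.13).

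Gene lists were described by the number of members that changed and by a list level. The level of a list in a library is the median, over its tested members, of log2(CPM + 1) minus the gene's mean in shNT. Of 56 lists, 16 had a higher level and 5 a lower level in all 6 shGLO1 libraries than in all 3 shNT libraries, and 35 overlapped. These positions held with 2 other scalings of the libraries, except that the PP2A list overlapped with both, and the actin and lysophospholipid lists with gene count totals. With gene count totals 2 of the overlapping lists, the Wnt list and the list of cell cycle inhibitors and p53-type targets, were higher. Over all tested genes the median pooled log2 fold change was -0.0056.

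**Figure D1:**
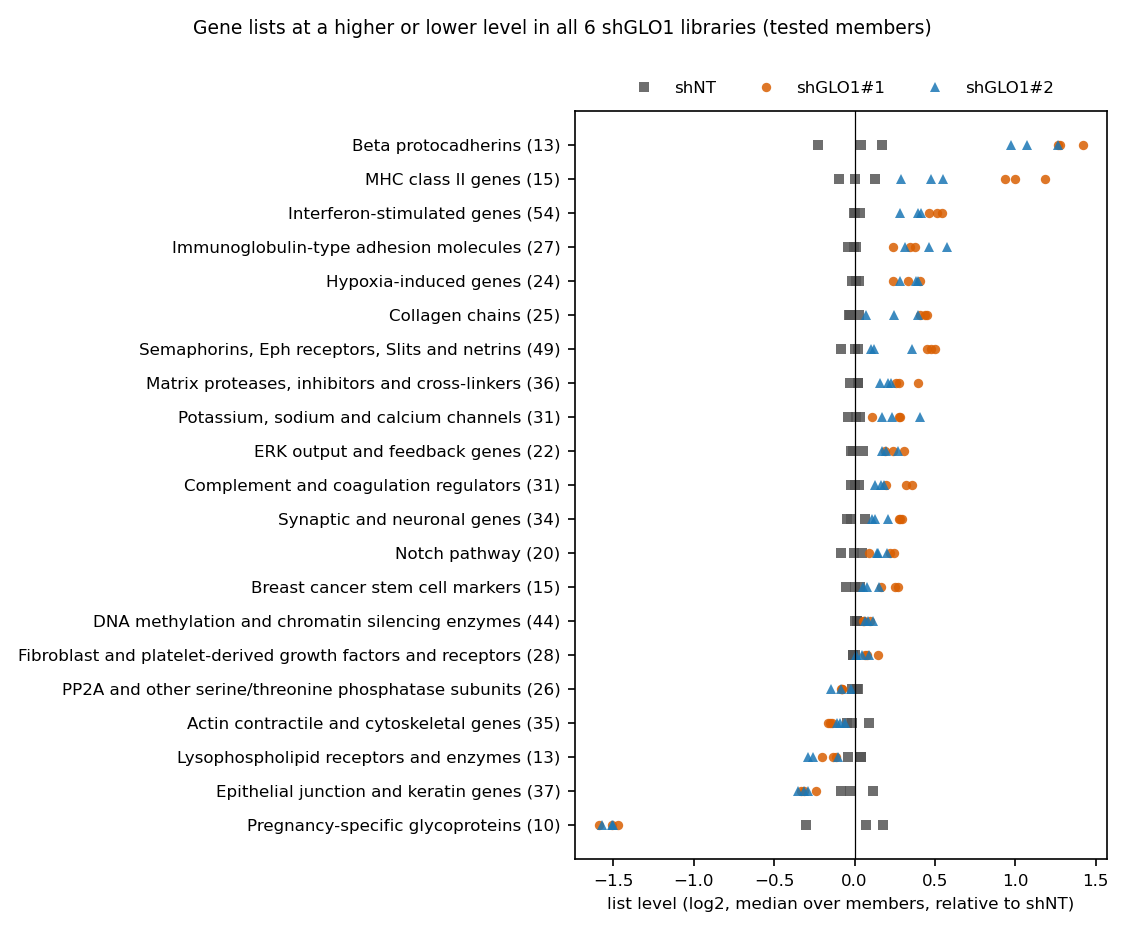
Level of the 21 gene lists whose 6 shGLO1 libraries all lay on one side of the 3 shNT libraries (x axis, log2 relative to the shNT mean; number of tested members in brackets). Each symbol is 1 library. Pregnancy-specific glycoproteins were lowest and beta protocadherins highest, and with other scalings of the libraries the PP2A, actin and lysophospholipid lists overlapped.

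Interferon-stimulated genes are induced by interferon receptor signalling, through the interferon-stimulated response element (ISRE) in their promoters. They encode antiviral proteins such as the 2'-5' oligoadenylate synthetases and the Mx GTPases. Of 55 genes listed 54 were tested, and 13 were called higher and 0 lower, against 5.12 and 2.09% of all genes. The libraries did not overlap for 29 higher members and for 1 lower member, against 12 and 12.6% of all genes. With adjusted p alone, 41 were higher and 4 lower. The list level was -0.00 to 0.03 in shNT and 0.28 to 0.54 in shGLO1 libraries, and the median pooled log2 fold change was 0.57 (0.59 in shGLO1#1 and 0.47 in shGLO1#2). In these bulk samples more RNA per cell and more expressing cells cannot be told apart.

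The printed sequences are promoters of 4 interferon-stimulated genes whose libraries did not overlap, with the ISRE core, a GAAA, any 2 bases and another GAAA, on either strand, in capitals. They are RefSeq windows of 300 bases, from 250 before to 50 after the start site, in GRCh38.p14, all on the plus strand. IFI44L and IFI44 are neighbours on chromosome 1, at chr1:78620198-78620497 and chr1:78649539-78649838. IFITM1 lies at chr11:313790-314089 and ISG20 at chr15:88638766-88639065.
IFI44L: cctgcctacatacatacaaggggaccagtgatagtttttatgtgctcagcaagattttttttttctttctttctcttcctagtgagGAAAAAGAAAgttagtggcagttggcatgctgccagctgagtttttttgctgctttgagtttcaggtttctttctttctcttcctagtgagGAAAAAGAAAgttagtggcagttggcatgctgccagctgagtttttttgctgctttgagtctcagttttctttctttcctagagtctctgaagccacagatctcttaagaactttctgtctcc
IFI44: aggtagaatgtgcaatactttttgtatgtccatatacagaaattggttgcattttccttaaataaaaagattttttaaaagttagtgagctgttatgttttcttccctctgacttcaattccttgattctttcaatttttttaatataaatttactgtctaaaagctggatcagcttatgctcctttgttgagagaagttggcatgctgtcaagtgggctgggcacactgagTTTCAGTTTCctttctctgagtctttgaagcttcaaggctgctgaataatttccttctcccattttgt
IFITM1: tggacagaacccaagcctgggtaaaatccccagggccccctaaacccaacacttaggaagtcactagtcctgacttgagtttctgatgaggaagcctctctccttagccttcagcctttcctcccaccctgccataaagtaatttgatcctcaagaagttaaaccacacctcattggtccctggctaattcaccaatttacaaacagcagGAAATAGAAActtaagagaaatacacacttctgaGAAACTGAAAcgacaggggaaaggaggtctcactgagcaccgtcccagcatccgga
ISG20: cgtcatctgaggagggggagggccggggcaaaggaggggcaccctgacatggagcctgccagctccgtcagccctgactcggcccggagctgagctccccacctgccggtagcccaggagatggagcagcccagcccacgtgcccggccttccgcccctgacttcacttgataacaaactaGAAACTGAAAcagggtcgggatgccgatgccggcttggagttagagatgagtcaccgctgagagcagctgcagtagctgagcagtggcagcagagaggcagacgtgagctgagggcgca

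Of the 54 tested list members 41 had a window in the RefSeq table, and 30 of these genes (73.2%) held the core in at least 1 window. Among all tested genes with a window it was 418 of 10092 (4.14%), and among all 35116 windows 1255 (3.57%). The core was in 16 of 20 members (80.0%) whose libraries did not overlap and were higher, and in 14 of 21 other members (66.7%). No window of OAS1, which is described next, held the core. Matches may overlap and are a description of the sequence, not of binding.

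OAS1, an oligoadenylate synthetase that senses double-stranded RNA, was 0.269, 0.652 and 0.720 CPM in shNT and 2.57 to 7.89 CPM (median 5.05) in shGLO1 libraries, a pooled log2 fold change of 3.03 (SE 0.25, adjusted p = 8.14e-07). MX2, an Mx GTPase that restricts retroviruses, was 0.336, 0.326 and 0.221 CPM in shNT and 1.20 to 4.02 CPM (median 1.97) in shGLO1 (log2 fold change 2.84, SE 0.31, adjusted p = 8.21e-06). Neither gene reached 1 CPM in any shNT library, and every shGLO1 library lay above 1 CPM. OASL, an oligoadenylate synthetase-like protein, rose from a higher base, with 9.34, 8.93 and 12.5 CPM in shNT and 34.1 to 49.0 CPM (median 43.3) in shGLO1 (log2 fold change 2.05, SE 0.13, adjusted p = 8.91e-08). IFI44 was 14.4, 13.5 and 15.4 CPM in shNT and 36.2 to 62.1 CPM (median 48.7) in shGLO1 (log2 fold change 1.71, SE 0.068, adjusted p = 1.79e-09). Its neighbour IFI44L was 0.672, 1.5 and 1.27 CPM in shNT and 2.48 to 7.34 CPM (median 4.24) in shGLO1 (log2 fold change 1.88, SE 0.23, adjusted p = 2.89e-05). The groups did not overlap for any of these 5 genes. ISG20, an exonuclease, and IFITM1, a membrane protein that blocks viral entry, also rose, by log2 fold changes of 1.42 and 1.36.

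Other members rose less or overlapped. IFIT1, an RNA-binding antiviral protein, was 45.0, 40.6 and 46.6 CPM in shNT and 64.9 to 80.4 CPM (median 70.2) in shGLO1, a log2 fold change of 0.69 that passed the test (adjusted p = 4.30e-06) but not the fold limit. The ubiquitin-like ISG15 was 41.2, 36.6 and 32.5 CPM in shNT and 36.3 to 58.8 CPM (median 43.4) in shGLO1, and its groups overlapped. The adjusted p of ISG15 was 0.013, and 0.077 without shNT replicate 3. IRF1 had log2 fold changes of 0.97 in shGLO1#1 and -0.06 in shGLO1#2, and the clones differed by -1.03 (adjusted p = 2.60e-06). MX1 was called, although its groups overlapped, with 1.07, 1.83 and 2.66 CPM in shNT, 2.45 to 3.95 CPM in shGLO1#1 and 10.7 to 14.4 CPM in shGLO1#2.

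**Figure D2:**
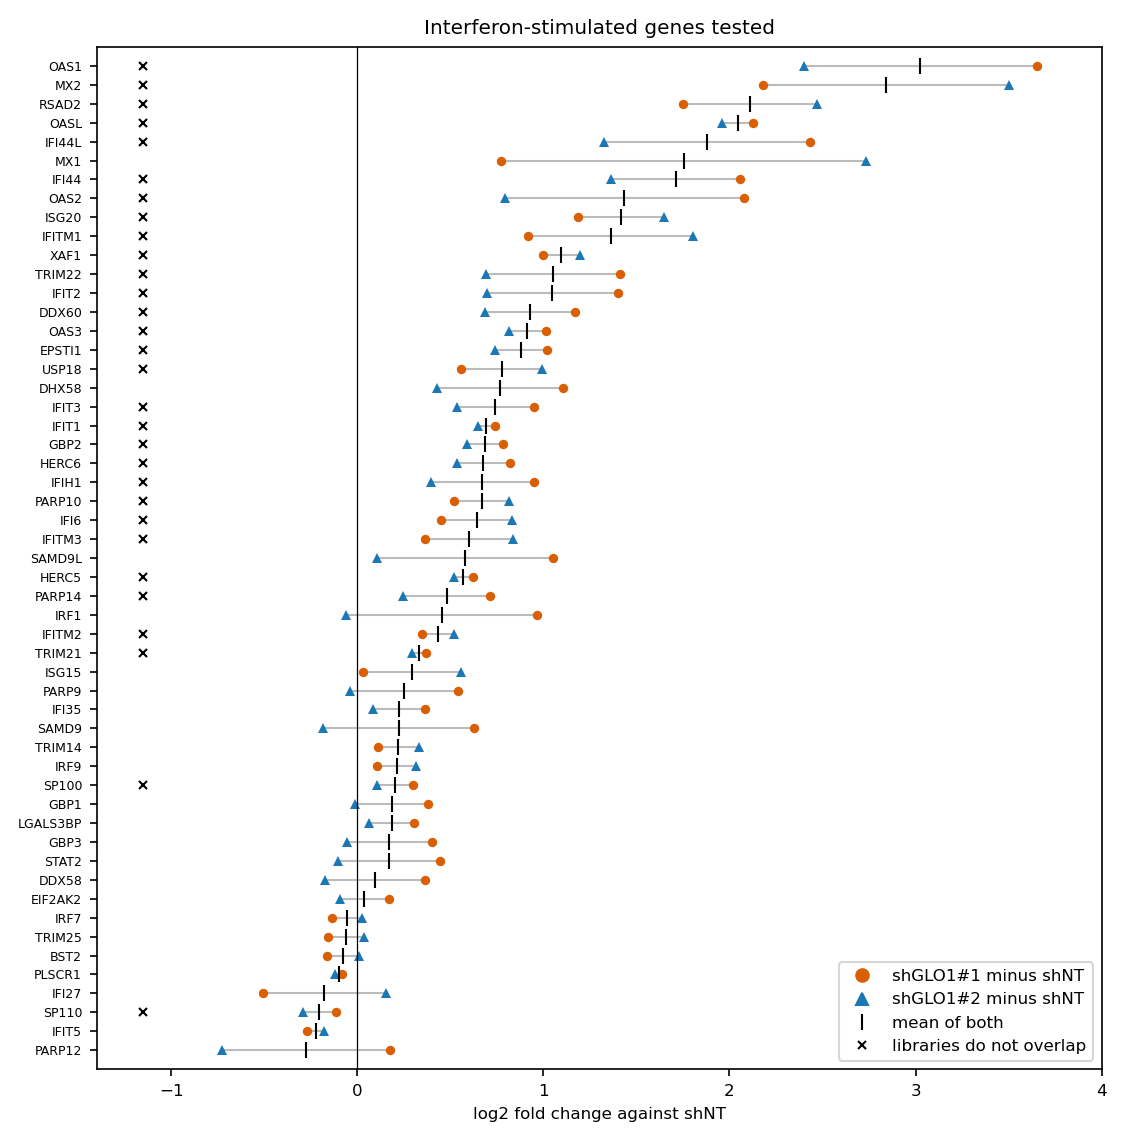
Log2 fold change against shNT (x axis) of 53 of the 54 tested interferon-stimulated genes, 1 gene a row, in shGLO1#1 (circles) and shGLO1#2 (triangles), with their mean (bars). Crosses mark genes whose 6 shGLO1 libraries did not overlap the 3 shNT libraries, 29 higher and 1 lower. OAS1 and MX2 had the largest means, OAS1 with the larger value in shGLO1#1 and MX2 in shGLO1#2.

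MHC class II molecules present peptides to CD4+ T cells and are controlled by the transactivator CIITA, which acts with the RFX factors and NF-Y. Of 19 genes listed, 15 were tested. 7 were called higher and 1 lower, and the libraries did not overlap for 10 higher and 1 lower. Over all genes 5.12% were called higher and 2.09% lower, and 12 and 12.6% did not overlap. HLA-DRA, HLA-DPA1, HLA-DPB1 and HLA-DRB1 passed the count filter only through the shGLO1 libraries. Being high there was a condition for testing them, so their calls add no support to the comparison with all genes. CIITA was 0, 0.587 and 0.609 CPM in shNT and 4.22 to 6.73 CPM (median 5.06) in shGLO1, a pooled log2 fold change of 3.61 (SE 0.34, adjusted p = 2.78e-06). CD74, the invariant chain, was 24.7, 29.7 and 29.9 CPM in shNT and 65.0 to 75.7 CPM (median 68.4) in shGLO1 (log2 fold change 1.30, SE 0.074, adjusted p = 4.04e-08). Its clones differed by only 0.01 on the log2 scale. Every shGLO1 library lay above every shNT library for both genes.

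The peptide-binding chains were near absent in shNT. HLA-DRA had 8 counts over the 3 shNT libraries and 439 over the 6 shGLO1 libraries, and reached 1.83 to 7.18 CPM (median 3.68) in shGLO1 (log2 fold change 4.39, SE 0.35, adjusted p = 5.62e-07). HLA-DPA1 had 5 counts in shNT and 275 in shGLO1, at 1.16 to 3.83 CPM (median 2.66) (log2 fold change 4.54, SE 0.48, adjusted p = 6.73e-06). HLA-DPB1 went from 0 to 61 counts and HLA-DRB1 from 3 to 96, both uncertain because near-identical HLA genes share reads. HLA-DMA, which helps load peptides, was 5.44, 6.26 and 5.32 CPM in shNT and 8.38 to 14.8 CPM (median 10.7) in shGLO1. MARCH1, a ligase that removes class II molecules from the surface, was the 1 member called lower (log2 fold change -4.53). The regulators RFX5 and RFXANK were at 0.20 and 0.06, the first with an adjusted p of 0.0084 and the second of 0.57.

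Some leukocytes express class II genes too. The summed level of leukocyte markers was 7.37 to 10.8 CPM in shNT and 2.16 to 4.65 CPM in shGLO1 libraries, with 2 of 5 markers tested and PTPRC making up most of it. LYZ, the other tested marker, had means of 0.916 CPM in shNT, 1.22 CPM in shGLO1#1 and 1.20 CPM in shGLO1#2. Of 25 tested genes of a wider leukocyte-type list, 4 were called higher and 3 lower, against 5.12 and 2.09% of all genes. Its level was 0.01 to 0.02 in shNT, -0.09 to 0.13 in shGLO1#1 and 0.18 to 0.25 in shGLO1#2. The part of other cells in the class II result was not tested. Class I and peptide loading genes did not move as a list, since the clones went apart. Their level was -0.00 to 0.02 in shNT, 0.22 to 0.25 in shGLO1#1 and -0.25 to -0.08 in shGLO1#2. The Y box letters GATTGG were in a promoter window of 6 of the 10 class II members with one (60.0%) and of 23.7% of tested genes.

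The hypoxia list holds targets of HIF-1 and HIF-2, whose response element has the core ACGTG, and the HIF subunit genes HIF1A, EPAS1 and ARNT. None of its 24 tested members passed the test as lower. The libraries did not overlap for 11 higher members, against 12% of all genes. With adjusted p alone 17 were higher, against 19.9% of all genes. Over all genes 5.12% were called higher, and of the list 2 members passed the fold limit. Those were the carbonic anhydrases CA12 and CA9, membrane enzymes that hydrate CO2 at the cell surface. CA12 was 2.75, 4.11 and 4.43 CPM in shNT and 11.5 to 17.5 CPM (median 13.0) in shGLO1 (log2 fold change 1.86, SE 0.18, adjusted p = 2.58e-06), and its clones were equal at 1.86 and 1.86. CA9 was 0.336, 0.978 and 0.941 CPM in shNT and 1.85 to 4.53 CPM (median 2.59) in shGLO1 (log2 fold change 1.84, SE 0.33, adjusted p = 5.02e-04). No window of CA12 held the core, nor did those of KDM3A, HIF1A and EGLN3, which are described below. The CA9 promoter is shown because the core lies just before the start site, at chr9:35673678-35673977 on the plus strand of GRCh38.p14, with ACGTG in capitals as its complement.
CA9: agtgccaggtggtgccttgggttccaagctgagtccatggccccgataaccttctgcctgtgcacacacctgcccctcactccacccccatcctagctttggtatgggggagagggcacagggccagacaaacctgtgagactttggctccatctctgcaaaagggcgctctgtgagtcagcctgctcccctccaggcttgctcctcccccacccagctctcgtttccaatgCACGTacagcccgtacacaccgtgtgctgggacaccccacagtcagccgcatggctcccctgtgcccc

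The demethylase KDM3A rose in both clones (log2 fold change 0.82, SE 0.053, adjusted p = 1.06e-07), from 47.3, 48.8 and 47.9 CPM in shNT to 81.6 to 89.9 CPM (median 83.3) in shGLO1. HIF1A itself was 698, 575 and 666 CPM in shNT and 766 to 989 CPM (median 899) in shGLO1 (log2 fold change 0.48, SE 0.077, adjusted p = 2.21e-04). EGLN3, a prolyl hydroxylase that marks HIF for degradation, had a log2 fold change of 0.88. VEGFA, the angiogenic factor, had 0.51 in shGLO1#1 and 0.03 in shGLO1#2, with overlapping groups, and LOX (0.03) and ADM (0.06) did not pass the test. The HIF core was in a window of 11 of 19 list members (57.9%) and of 32.2% of tested genes. It was in 4 of 9 members whose libraries did not overlap and in 7 of 10 others. Of 24 glycolysis genes tested, 9 were higher and 3 lower by adjusted p, against 19.9 and 22.3% of all genes, and the clones went apart. The list level was -0.06 to 0.08 in shNT, 0.00 to 0.01 in shGLO1#1 and 0.16 to 0.25 in shGLO1#2.

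ERK output genes are transcribed when the MEK/ERK kinases are active, and many of them, the Sprouty proteins and dual-specificity phosphatases (DUSPs), feed back on the pathway. None of 22 members passed the fold limit. The libraries did not overlap for 9 higher and 1 lower members, against 12 and 12.6% of all genes. With adjusted p alone 12 were higher and 2 lower, against 19.9 and 22.3% of all genes. SPRY4 was 130.2, 128 and 118 CPM in shNT and 186 to 243 CPM (median 218) in shGLO1 (log2 fold change 0.79, SE 0.077, adjusted p = 3.47e-06). SPRY2 was 77.2, 69.8 and 75.4 CPM in shNT and 84.4 to 131 CPM (median 116) in shGLO1 (log2 fold change 0.59, SE 0.061, adjusted p = 5.97e-06). The nuclear ERK phosphatase DUSP4 was 482, 399.5 and 432 CPM in shNT and 531 to 733 CPM (median 652) in shGLO1 (log2 fold change 0.55). All 3 genes were higher in every shGLO1 library.

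DUSP5, another nuclear ERK phosphatase, went the other way, with 269, 243 and 211 CPM in shNT and 110.0 to 171 CPM (median 153) in shGLO1 (log2 fold change -0.74, SE 0.085, adjusted p = 1.49e-05). DUSP6, the cytoplasmic ERK phosphatase, was 427, 342 and 402 CPM in shNT and 336 to 489 CPM (median 450.2) in shGLO1, and its groups overlapped (adjusted p = 0.21, and 0.038 without shGLO1#2 replicate 2). Over all genes 2.09% were called lower and 5.12% higher, and of 14 other DUSPs tested 2 were called lower and 0 higher. These were DUSP8 (log2 fold change -1.75) and DUSP10 (-1.04), which act on the stress kinases JNK and p38. DUSP10 was 27.4, 26.6 and 29.7 CPM in shNT and 9.75 to 18.7 CPM (median 14.3) in shGLO1, and its log2 fold change without shNT replicate 3 was -0.98. The 26 tested subunits of PP2A and other serine/threonine phosphatases had 0 called higher and 0 lower, and by adjusted p alone 8 were lower and 4 higher, near the shares over all genes (22.3 and 19.9%).

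Among EGF receptor genes, LRIG1, a negative regulator of these receptors, was 0.269, 0.717 and 0.498 CPM in shNT and 2.61 to 17.4 CPM (median 6.50) in shGLO1 (log2 fold change 3.62, SE 0.36, adjusted p = 3.99e-06). The ligand BTC (betacellulin) rose by 1.66 and the receptor ERBB3 fell (log2 fold change -1.06). ERBB3 was 41.6, 28.9 and 27.4 CPM in shNT and 10.8 to 18.9 CPM (median 16.5) in shGLO1. Of 14 members tested, 3 were called higher and 1 lower, against 5.12 and 2.09% of all genes, and the list level overlapped. The log2 fold change of ERBB3 was -0.84 without shNT replicate 1 and -0.97 without shGLO1#2 replicate 3, short of the fold limit.

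In the TGF-beta and BMP family, 2 of 37 tested members were called higher and 3 lower. The share called higher was near that over all genes (5.12%), and 2.09% of all genes were called lower. The list levels overlapped. The 3 lower members were ligands and an antagonist: INHBB, an activin subunit (-1.89), FST, which binds activin (-1.27), and BMP2 (-1.03). BMP2 fell short of the fold limit without shNT replicate 3 (-0.99), shGLO1#1 replicate 3 (-0.96) or shGLO1#2 replicate 2 (-0.98). SMAD1, which transmits BMP signals, was 7.66, 9.32 and 6.59 CPM in shNT and 9.12 to 12.2 CPM (median 10.2) in shGLO1 (log2 fold change 0.40, SE 0.13, adjusted p = 0.025), and the groups overlapped. Its adjusted p was 0.068 without shNT replicate 1, 0.13 without shNT replicate 3 and 0.056 without shGLO1#1 replicate 1. SMAD5 was at 0.19, and the common partner SMAD4 at -0.05 in shGLO1#1 and -0.56 in shGLO1#2. SMAD6, an inhibitory SMAD and a SMAD target, fell (log2 fold change -1.12, SE 0.27, adjusted p = 0.0048), by 0.84 on the log2 scale without shNT replicate 1. The target TGFBI, a matrix protein, was 22.4, 24.7 and 28.9 CPM in shNT and 54.2 to 69.9 CPM (median 60.6) in shGLO1 (log2 fold change 1.26). Of 21 SMAD target genes tested, 2 were called higher and 2 lower, against 5.12 and 2.09% of all genes. The clones went apart, with median log2 fold changes of 0.34 in shGLO1#1 and -0.23 in shGLO1#2.

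Of 34 Wnt genes tested 3 were called higher and 1 lower, of 11 Hedgehog genes 2 higher and 0 lower, and of 20 Notch genes 2 higher and 2 lower, against 5.12 and 2.09% of all genes. The Wnt and Hedgehog list levels overlapped, and the Notch level was higher in every shGLO1 library. In the Wnt list WNT5A, a ligand of non-canonical signalling, was 0.874, 0.913 and 1.22 CPM in shNT and 2.99 to 10.5 CPM (median 4.57) in shGLO1 (log2 fold change 2.36, SE 0.37, adjusted p = 2.08e-04). LEF1, a transcription factor of the canonical pathway, was 3.23, 5.80 and 3.21 CPM in shNT and 7.87 to 13.0 CPM (median 10.2) in shGLO1 (log2 fold change 1.35). BOC, a Hedgehog co-receptor, was 0.672, 1.24 and 0.830 CPM in shNT and 2.57 to 5.12 CPM (median 4.08) in shGLO1. Its log2 fold change was 2.11. The transcription factor GLI2 had 8 counts over the shNT libraries, 48 over those of shGLO1#1 and 239 over those of shGLO1#2. In the Notch list the ligand DLL4 (-1.89) and HES2 (-1.34), a repressor of the HES family, were called lower. LFNG (1.09), a glycosyltransferase that modifies Notch, and HEYL (1.76), a target gene, were called higher. LFNG had 1.69 in shGLO1#1 and 0.49 in shGLO1#2. HEYL had 0.50 in shGLO1#1 and 3.02 in shGLO1#2, and its groups overlapped. RBPJ, the DNA-binding partner of Notch, was 222, 234 and 235 CPM in shNT and 268 to 283 CPM (median 276) in shGLO1, a small rise in every library (log2 fold change 0.26, SE 0.042).

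Epithelial junction and keratin genes were lower as a list. Of 37 members tested, 3 were called higher and 6 lower, against 5.12 and 2.09% of all genes. With adjusted p alone 3 were higher and 22 lower, against 19.9 and 22.3% of all genes. The libraries did not overlap for 14 lower and 2 higher members, against 12.6 and 12% of all genes. The list level was -0.08 to 0.12 in shNT and -0.35 to -0.24 in shGLO1. MAL2, a membrane protein of apical transport, was 272, 223 and 278 CPM in shNT and 39.9 to 67.6 CPM (median 50.2) in shGLO1 (log2 fold change -2.37, SE 0.081, adjusted p = 6.74e-10). SPINT1, an inhibitor of membrane serine proteases, was 66.6, 42.1 and 45.5 CPM in shNT and 8.43 to 24.1 CPM (median 14.5) in shGLO1 (log2 fold change -1.88), and its target protease ST14 had a log2 fold change of -1.69. ESRP2, a splicing regulator of epithelial isoforms, was 35.9, 29.0 and 29.1 CPM in shNT and 8.70 to 15.1 CPM (median 12.7) in shGLO1 (log2 fold change -1.35). CDH1, which encodes E-cadherin, fell from 32.6, 15.8 and 29.9 CPM in shNT to 0.496 to 2.167 CPM (median 1.04) in shGLO1. All 5 were lower in every shGLO1 library. The level of the list of epithelial-mesenchymal transition factors and mesenchymal genes overlapped. Of its 17 tested members 2 were called higher and 1 lower, against 5.12 and 2.09% of all genes.

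Keratins of simple epithelia fell less. KRT18 was 922, 773 and 815 CPM in shNT and 543 to 699 CPM (median 675) in shGLO1 (log2 fold change -0.35), and KRT7 1151, 887 and 998 CPM and 482 to 775 CPM (median 671) (log2 fold change -0.65). The tight junction protein OCLN (occludin) was 48.8, 44.7 and 43.2 CPM in shNT and 29.9 to 35.5 CPM (median 31.2) in shGLO1 (log2 fold change -0.51). The hair keratin KRT81 was among the 3 members called higher, at 2.62, 2.80 and 1.99 CPM in shNT, 5.59 to 6.31 CPM in shGLO1#1 and 66.6 to 121 CPM in shGLO1#2. KRT81 is uncertain, because it is nearly identical to KRT86, which was called too. Actin and contractile genes moved less, and none was called. The libraries did not overlap for 11 of 35 lower and 1 higher, against 12.6 and 12% of all genes. ACTB was 5740.0, 5448 and 5110.0 CPM in shNT and 3911 to 4909 CPM (median 4383) in shGLO1 (log2 fold change -0.32).

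**Figure D3:**
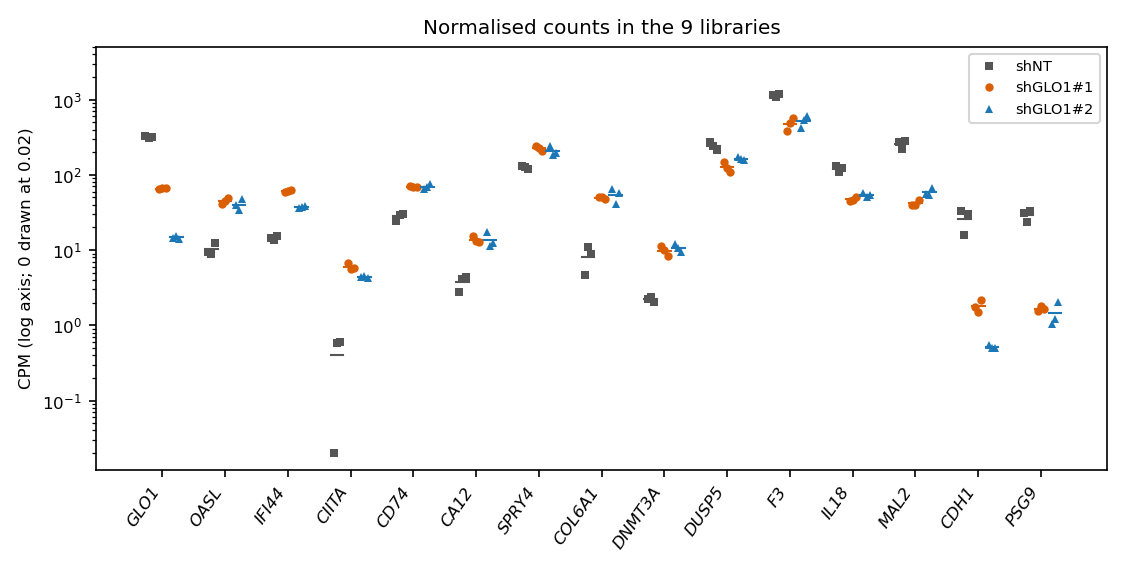
CPM (log axis) of 15 genes in the 9 libraries. Symbols are libraries and lines are means of 3 libraries of a line. The 6 shGLO1 libraries lay on one side of the 3 shNT libraries for each gene, above for OASL, IFI44, CIITA, CD74, CA12, SPRY4, COL6A1 and DNMT3A and below for the others.

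Type VI collagen forms beaded filaments around cells, and the alpha3 to alpha5 chains of type IV collagen belong to specialised basement membranes. Of 25 collagen chains tested, 9 were called higher and 2 lower, against 5.12 and 2.09% of all genes. COL6A1 was 4.70, 11.02 and 8.75 CPM in shNT and 41.3 to 64.0 CPM (median 50.5) in shGLO1 (log2 fold change 2.65, SE 0.19, adjusted p = 2.88e-07). COL6A2 was 0.202, 0.326 and 0.388 CPM in shNT and 2.62 to 11.02 CPM (median 6.38) in shGLO1 (log2 fold change 4.23, SE 0.37, adjusted p = 1.13e-06). COL6A3 was 2.75, 5.22 and 4.43 CPM in shNT, 43.3 to 56.0 CPM in shGLO1#1 and 8.19 to 12.7 CPM in shGLO1#2, so the rise in the second clone was smaller. Both called lower chains were the neighbours COL4A3 and COL4A4. COL4A4 was 46.9, 34.8 and 35.1 CPM in shNT and 2.96 to 7.74 CPM (median 5.52) in shGLO1 (log2 fold change -2.89), and COL4A3 fell by 3.31 on the log2 scale. The fibroblast marker LUM, a proteoglycan, fell (log2 fold change -3.22), while the other fibroblast markers DCN, COL3A1 and PDGFRA had 4, 5 and 8 counts over the 9 libraries. TNC, a matrix glycoprotein of migrating cells, was 3.56, 15.5 and 9.58 CPM in shNT and 37.8 to 63.8 CPM (median 49.6) in shGLO1 (log2 fold change 2.40, SE 0.29, adjusted p = 2.48e-05).

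Complement and coagulation genes include the C1 proteases, which start the classical pathway, and tissue factor, which starts clotting. Of 31 members tested, 3 were called higher and 1 lower, against 5.12 and 2.09% of all genes. The libraries did not overlap for 11 higher and 4 lower members, against 12 and 12.6% of all genes. C1R was 1.68, 2.28 and 1.77 CPM in shNT and 6.53 to 11.1 CPM (median 8.50) in shGLO1 (log2 fold change 2.13, SE 0.16, adjusted p = 3.08e-07). C1S, its partner, was 0.470, 0.130 and 0.332 CPM in shNT and 0.726 to 3.08 CPM (median 1.64) in shGLO1 (log2 fold change 2.41). SERPING1, their inhibitor, had 1 count over the shNT libraries, 19 over those of shGLO1#1 and 80 over those of shGLO1#2. The plasminogen activators PLAT (0.83) and PLAU (0.77) rose in every shGLO1 library. F3, which encodes tissue factor, was 1151, 1070.0 and 1182 CPM in shNT and 382 to 603 CPM (median 512) in shGLO1 (log2 fold change -1.18, SE 0.11, adjusted p = 2.43e-06). CD55, which protects cells from complement, was 393, 339 and 376 CPM in shNT and 230.4 to 336 CPM (median 270.3) in shGLO1 (log2 fold change -0.44).

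Of 39 chemokine, interleukin and NF-kB target genes tested, 2 were called higher and 5 lower, against 5.12 and 2.09% of all genes. The lower genes were the receptors CXCR4 and IL6R, the cytokine IL18, the chemokine CXCL16 and the adhesion receptor ICAM1. IL18 was 129.5, 109.6 and 123 CPM in shNT and 45.0 to 56.7 CPM (median 50.4) in shGLO1 (log2 fold change -1.27, SE 0.062, adjusted p = 1.19e-08). ICAM1 was 51.7, 48.4 and 48.4 CPM in shNT and 22.6 to 25.3 CPM (median 24.1) in shGLO1 (log2 fold change -1.05). CXCR4, the receptor of CXCL12, was 52.2, 42.6 and 45.5 CPM in shNT, 0.679 to 0.979 CPM in shGLO1#1 and 7.26 to 8.16 CPM in shGLO1#2. Without shNT replicate 2 CXCL16 was not called (log2 fold change -0.85, adjusted p = 0.13). For all 5 genes every shGLO1 library lay below every shNT library.

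DNMT3A, a de novo DNA methyltransferase, was 2.22, 2.35 and 2.05 CPM in shNT and 8.27 to 12 CPM (median 10.3) in shGLO1 (log2 fold change 2.22, SE 0.15, adjusted p = 1.82e-07). TET1, which oxidises methylcytosine, was 1.07, 0.587 and 0.775 CPM in shNT and 1.28 to 3.33 CPM (median 2.05) in shGLO1 (log2 fold change 1.31). Of 44 DNA methylation and chromatin silencing enzymes tested these were the 2 called, no larger a share than over all genes (7.22%). The maintenance methyltransferase DNMT1 was 403, 427 and 418 CPM in shNT and 331 to 441 CPM (median 390.0) in shGLO1, and its groups overlapped (adjusted p = 0.067, and 0.040 without shGLO1#1 replicate 3). DNMT3B (log2 fold change 0.09) and EZH2 (-0.04) did not pass the test.

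Of 31 potassium, sodium and calcium channel genes tested, 10 were called higher and 1 lower, against 5.12 and 2.09% of all genes. Without overlap 6 were higher and 5 lower, against 12 and 12.6% of all genes. KCNN4, a calcium-activated potassium channel, was 5.84, 7.83 and 5.42 CPM in shNT and 13.7 to 44.6 CPM (median 29.4) in shGLO1 (log2 fold change 2.05). SCN9A, a voltage-gated sodium channel, was 33.1, 22.4 and 25.4 CPM in shNT and 8.61 to 12.6 CPM (median 9.04) in shGLO1 (log2 fold change -1.49). CD24, a surface sialoglycoprotein used as a marker of breast cancer stem cells by its absence, was 1.14, 2.35 and 1.38 CPM in shNT and 8.998 to 15.8 CPM (median 11.6) in shGLO1 (log2 fold change 2.87, SE 0.21, adjusted p = 2.94e-07). The stem cell factors KLF4 (0.94) and SOX9 (0.67) rose in every shGLO1 library.

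Among enzymes that handle MG other than GLO1, 3 were called higher and none but GLO1 lower, of 21 tested. Over all genes 5.12% were called higher and 2.09% lower. The aldo-keto reductase AKR1C3 (log2 fold change 1.78) and the aldehyde dehydrogenase ALDH3A1 (1.97) were higher in every shGLO1 library, and AKR1B10 (1.27) overlapped. AKR1B10 was not called without shNT replicate 1 (adjusted p = 0.097), shNT replicate 2 (0.095) or shGLO1#2 replicate 1 (0.051). AKR1B1, the aldose reductase, fell (log2 fold change -0.46, SE 0.058, adjusted p = 3.18e-05). HAGH, the second glyoxalase, was 38.8, 35.1 and 34.8 CPM in shNT and 26.3 to 34.7 CPM (median 30.0) in shGLO1 (log2 fold change -0.26, adjusted p = 0.01, and 0.072 without shNT replicate 1). NRF2 targets and glutathione genes had no called member among 33 tested. AKR1C3 is uncertain, since AKR1C1, AKR1C2 and AKR1C3 are near-identical.

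The highest pooled log2 fold changes among genes with at least 10 CPM in both clones, besides the genes above, were those of CALB2, PDK3, CLMN, LAPTM5, TBXAS1 and SLCO4A1. CALB2, the calcium buffer calretinin, was 2.49, 5.15 and 4.54 CPM in shNT and 25.3 to 33.3 CPM (median 30.3) in shGLO1 (log2 fold change 2.85, SE 0.15, adjusted p = 2.61e-08). PDK3, a kinase that inhibits pyruvate dehydrogenase, was 0.806, 4.30 and 3.99 CPM in shNT and 17.2 to 25.3 CPM (median 19.6) in shGLO1 (log2 fold change 2.72). LAPTM5, a lysosomal protein of haematopoietic cells, was 9.21, 19.6 and 19.0 CPM in shNT and 68.6 to 120.3 CPM (median 97.8) in shGLO1 (log2 fold change 2.55). At the other end, SLC6A20, an amino acid transporter, was 12.4, 6.39 and 11.5 CPM in shNT and 0.304 to 0.869 CPM (median 0.693) in shGLO1 (log2 fold change -3.93). PSG7 (-5.81) and PSG5 (-4.47), members of the pregnancy-specific glycoproteins of the placenta, are uncertain as single genes because the family is near-identical. All 10 tested members of this family were called lower and were lower in every shGLO1 library, against 2.09 and 12.6% of all genes. Near-identical genes may share reads, so the 10 are not separate observations.

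The mean of 2 clones hides lists in which the clones went apart. In the direct test of shGLO1#2 against shGLO1#1, 6369 genes (46.5%) had an adjusted p under 0.05 and 971 (7.09%) also passed the fold limit. Cholesterol synthesis and uptake genes had a median log2 fold change of -0.75 in shGLO1#1 and 0.08 in shGLO1#2, and 22 of 26 differed between the clones. ATF4 targets and amino acid supply genes had medians of -0.54 and 0.03, with 28 of 31 different. Cytosolic ribosomal proteins had -0.22 and 0.17, with 60 of 64 different and 0 called in either direction in the pooled comparison. For mitosis genes 49 of 58 differed. For proteasome subunits 20 of 31 differed, but both medians were negative, at -0.21 in shGLO1#1 and -0.05 in shGLO1#2.

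**Figure D4:**
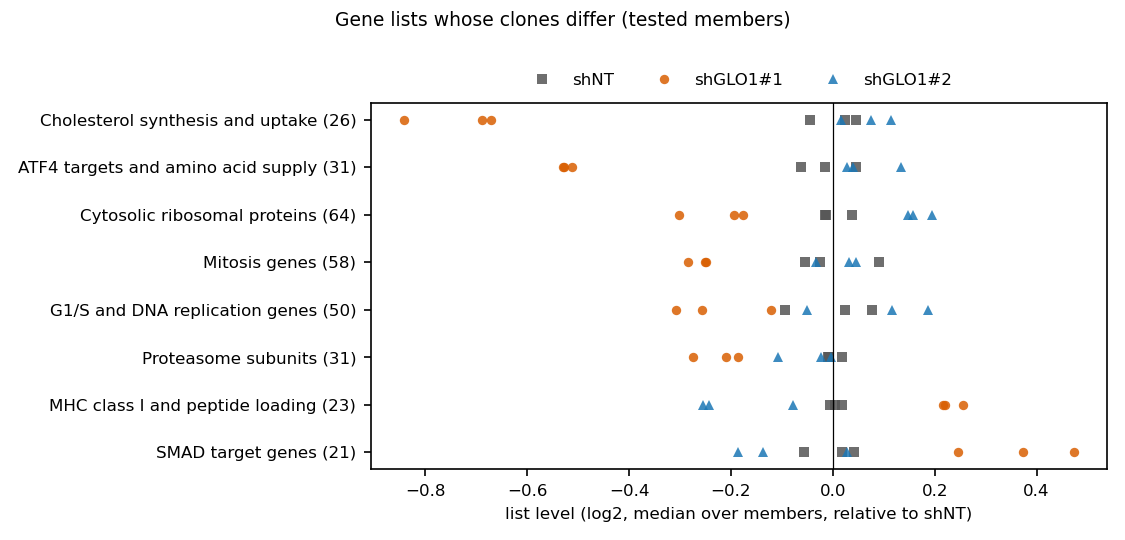
Level (x axis, log2 relative to the shNT mean; number of tested members in brackets) of 8 gene lists, 1 symbol a library. Cholesterol, ATF4 target and ribosomal protein genes were below shNT in the 3 shGLO1#1 libraries and within or above the shNT range in the shGLO1#2 libraries. MHC class I and SMAD target genes were above shNT in the shGLO1#1 libraries. In the shGLO1#2 libraries MHC class I genes were below shNT and SMAD target genes within or below the shNT range.

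Some members of these lists moved the same way in both clones. The libraries did not overlap for 11 of 31 proteasome subunits and 11 of 58 mitosis genes, all lower, against 12.6% of all genes. CYP51A1, a sterol demethylase, was 340.2, 362 and 372 CPM in shNT and 175 to 239.9 CPM (median 199.6) in shGLO1 (log2 fold change -0.80). By contrast, AARS, the alanyl-tRNA synthetase, was 369.7, 368 and 333 CPM in shNT, 159 to 167 CPM in shGLO1#1 and 369.7 to 394 CPM in shGLO1#2. The proliferation marker MKI67 was 933, 959.6 and 1040.0 CPM in shNT and 617 to 790.5 CPM (median 692) in shGLO1 (log2 fold change -0.49, SE 0.044, adjusted p = 1.43e-06). BUB3, a spindle checkpoint protein, was 538, 533 and 574 CPM in shNT and 375 to 431 CPM (median 393) in shGLO1 (log2 fold change -0.46).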

How the data were processed

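RNA libraries of MDA-MB-231 cells, 3 of each of 3 lines, were made by the authors with the TruSeq RNA kit of Illumina, which does not mark the strand. Per the submitters' processing notes, bcl2fastq 2.17, TopHat2 2.1.1, HTSeq and hg19 were used. The sources used here do not give HTSeq's version, annotation or strand setting. The authors deposited raw counts per gene symbol, not normalized, and rows for reads on no gene, ambiguous or not unique reads were left out, which left 77.1 to 79.5% of counted alignments.

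The tests used edgeR 4.0.16 (R 4.3.3): filterByExpr (minimum count 10, minimum total 15), TMM (factors 0.972 to 1.04) and a quasi-likelihood fit of 3 groups. The contrast was the mean of both clone coefficients minus shNT, with p-values adjusted by Benjamini and Hochberg over 13704 of 26364 genes. SE was computed as |log2 fold change| over the root of F. CPM values are counts scaled to TMM library sizes. No library was a copy of another. The test was checked on simulated data in which both clones had the same change. That check does not cover differences between the clones, which these data hold.

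The members and lists were chosen with earlier results of these data known. Named genes were GLO1, up to 5 members a list that were called, did not overlap and had at least 1 CPM on the higher side (where fewer than 2 did, up to 3 with the lowest p among those with adjusted p under 0.05), the 12 highest and 12 lowest with at least 10 CPM, and genes the paper names. Others were chosen after their values were seen, and some genes are not reported here. Alternatives were other scalings, filters, limits and models, DESeq2 1.42.0, limma-voom 3.58.1, the replicate block and leaving out each library. RefSeq promoters (GRCh38.p14) were used for sequence only, since the counts are on hg19.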

Additional observations from a re-analysis of the deposited data

Results flagged for a closer look

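Of the 117 genes named in the report, 29 passed both limits (adjusted p and fold change) in the direct edgeR comparison of the clones. Of all genes tested 7.09% did, but many named genes were chosen for large pooled fold changes, so these shares are not comparable. The values in brackets are log2 fold changes of shGLO1#2 minus shGLO1#1.

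Genes with estimates above shNT in both clones rose more in shGLO1#2 for AKR1C3 (1.15), COL6A2 (1.22), GLI2 (2.35), HEYL (2.52), KRT81 (3.97), KRT86 (1.40), LRIG1 (1.97), MX1 (1.96), MX2 (1.32), SERPING1 (2.11). They rose more in shGLO1#1 for C1S (-1.35), COL6A3 (-2.35), HLA-DPB1 (-1.19), HLA-DRA (-1.66), HLA-DRB1 (-1.77), IFI44L (-1.11), KCNN4 (-1.30), LFNG (-1.20), OAS1 (-1.25). Genes lower than shNT in both clones fell further in shGLO1#2 for CDH1 (-1.79), GLO1 (-2.15), LUM (-1.67), PSG5 (-1.19), SPINT1 (-1.31). They fell further in shGLO1#1 for CXCR4 (3.27), IL6R (1.13), PTPRC (1.08). The estimates against shNT had opposite signs in the clones for AARS (1.23), IRF1 (-1.03). For these 2 genes 1 clone's estimate lay near 0, with AARS at 0.10 in shGLO1#2 and IRF1 at -0.06 in shGLO1#2.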

How the results depend on the processing

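The main counts, 702 higher and 287 lower, moved to 2724 and 3051 with no fold change limit and to 1345 and 854 with a log2 limit of 0.5. Under the other alternatives they stayed within 1.5 times: 674 and 273 with DESeq2, 706 and 290 with limma-voom, 746 and 260 with gene count totals, 512 and 219 with only genes of a mean of 1 CPM or more. With all 6 shGLO1 libraries as 1 group, so that the difference between clones counts as spread, 528 and 209 were called, and 73.4% of the 989 calls were kept. Leaving out each library in turn gave 638 to 727 higher and 258 to 299 lower genes, the lowest without shNT replicate 1. The pooled log2 fold change of GLO1 lay between -3.37 and -2.99.

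Of the 117 genes named, 97 had the same call under every alternative of scaling, filter, model and left-out library, where they could be tested, and none changed sign while called. SSC5D also lost its call with no filter, DESeq2 and limma-voom. In the 2-group fit 14 lost their call or test, among them MX1, HEYL, LFNG, CXCL16, AKR1B10, DUSP10, SMAD1, SMAD4 and IRF1. With gene count totals, which shift the median of all genes from -0.0056 to 0.041, BMP2 (-0.98), DUSP10 (-0.99) and ICAM1 fell just short of the fold limit.

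Correlations between lines ran from -0.03 to 0.34 for same-numbered libraries and from -0.26 to 0.13 for differently numbered ones. For shNT and shGLO1#2 the same-numbered pairs had 0.21, 0.19 and 0.31, and all differently numbered pairs were negative. For shNT and shGLO1#1 the same-numbered pairs had -0.03, 0.06 and 0.25, and for shGLO1#1 and shGLO1#2 0.20, 0.07 and 0.34. Replicate 3 thus had the highest value each time. Whether the numbers mark a shared batch was not tested, and the main model had no replicate term. With the replicate number as a block, 707 genes were higher and 290 lower. DNMT1 and DUSP6 then passed the test on adjusted p, and no other named gene changed its call.

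Depth limits the folds of genes near absent in shNT, such as HLA-DRA with 8 counts and HLA-DPA1 with 5 counts over the 3 shNT libraries. Such genes passed the count filter only through the shGLO1 libraries.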

Other observations

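The 3 shNT libraries were not level in the genes that the pooled comparison called. Of the 702 genes called higher, shNT replicate 1 was the lowest of the 3 shNT libraries for 388 (55.3%), and of the 287 called lower it was the highest for 163 (56.8%). Over all tested genes it was the lowest for 35.4% and the highest for 34.7%. TNC, for example, was 3.56, 15.5 and 9.58 CPM in shNT replicates 1, 2 and 3, and PDK3 0.806, 4.30 and 3.99 CPM. Within shGLO1#2, replicate 1 was the highest of the 3 for 469 of the 702 genes (66.8%). Without shNT replicate 1, 638 genes were called higher and 258 lower.

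The summed level of 4 markers of endothelial cells was 0.913 to 1.34 CPM in shNT and 2.68 to 5.97 CPM in shGLO1 libraries. PECAM1 made up most of it (log2 fold change 1.78), and CDH5 and TEK had 3 and 18 counts over the 9 libraries.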
